A study of Mus musculus with 8 samples.

Results

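Meox1, Tcf21, Scx, Twist1, Twist2, Prrx1, Runx1, Sox9, Osr1 and Snai1 encode transcription factors that mark resting or activated fibroblasts and their mesenchymal precursors. They were selected by name from a table of 55385 genes. All 10 were found under a single identifier each, and all 10 passed the filter on low counts that left 15314 genes for testing.

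The 8 libraries are RNA-seq of homogenised left ventricle from male C57BL6 mice. Mst1-TG (4 libraries) carries an Mst1 transgene driven by the alpha-myosin heavy chain promoter, which is restricted to cardiomyocytes, and develops dilated cardiomyopathy. WT (4 libraries) stands for non-transgenic littermates. The series' design text gives an age of 3 weeks, the extraction protocol 3 months, and the growth protocol both 3 weeks and 5.5 months, so the age of these mice is uncertain. The kinase itself is encoded by Stk4, which lay between 25.2 and 29.5 CPM (counts scaled to a common library size) in WT and between 1447 and 1745 CPM in Mst1-TG, in the direction of the labels.

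Cardiac fibroblasts keep the collagen network of the ventricle. At rest they express Tcf21, a basic helix-loop-helix (bHLH) factor needed to form them. After injury or overload they switch on a matrix-secreting programme in which Meox1, a homeobox factor controlled by a stress-responsive enhancer, and Scx (scleraxis), a bHLH factor of tendon that binds collagen promoters, are well-known regulators. The transgene here is expressed in a different cell type from the one that makes most of these factors.

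The proximal promoters of the members were looked up in RefSeq (GRCm38.p6), which held 7 windows for 6 of the 10 members: Snai1, Twist1, Twist2, Tcf21, Prrx1 and, with a start each for its distal and its proximal promoter, Runx1. A window runs from 250 bases before to 50 bases after the gene start. The 4 short motifs below were searched on both strands. GGAATG, the core bound by TEAD factors (the DNA-binding partners of the Hippo effectors YAP and TAZ), was present in 2 of the 7 windows, against 14.7% of 32851 promoters of the same length. CANNTG, the E-box bound by bHLH and Snail-type factors, was present in 2 of 7, against 72.3%. TGTGGT, bound by RUNX factors, was present in 1 of 7 against 16.8%, and TGANTCA, bound by AP-1, in 0 of 7 against 7.81%. The window with TGTGGT is the distal one of Runx1, with 2 matches that read ACCACA and are not in capitals below. Matches of different motifs did not overlap in the windows printed here. The windows of Runx1 and Snai1, which rose, and of Prrx1, which did not pass the test, are shown because they hold the matches. Capitals mark GGAATG in the Prrx1 window (chr1:163313601-163313900, minus strand) and in the proximal Runx1 window (chr16:92697280-92697579, minus strand), and CANNTG in the Snai1 window (chr2:167537945-167538244, plus strand) and in the distal Runx1 window (chr16:92826025-92826324, minus strand).
Prrx1: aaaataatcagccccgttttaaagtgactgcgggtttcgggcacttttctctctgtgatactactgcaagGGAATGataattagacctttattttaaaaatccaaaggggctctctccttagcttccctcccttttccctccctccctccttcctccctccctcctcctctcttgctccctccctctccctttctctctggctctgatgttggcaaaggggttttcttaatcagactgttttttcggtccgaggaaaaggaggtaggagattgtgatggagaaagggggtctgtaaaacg
Runx1 proximal: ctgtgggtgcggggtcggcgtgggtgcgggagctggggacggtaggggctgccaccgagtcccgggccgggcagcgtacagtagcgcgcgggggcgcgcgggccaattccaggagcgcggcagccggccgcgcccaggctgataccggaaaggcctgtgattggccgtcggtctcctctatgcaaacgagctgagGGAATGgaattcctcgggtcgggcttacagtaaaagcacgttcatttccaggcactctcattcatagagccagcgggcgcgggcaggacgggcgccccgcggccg
Snai1: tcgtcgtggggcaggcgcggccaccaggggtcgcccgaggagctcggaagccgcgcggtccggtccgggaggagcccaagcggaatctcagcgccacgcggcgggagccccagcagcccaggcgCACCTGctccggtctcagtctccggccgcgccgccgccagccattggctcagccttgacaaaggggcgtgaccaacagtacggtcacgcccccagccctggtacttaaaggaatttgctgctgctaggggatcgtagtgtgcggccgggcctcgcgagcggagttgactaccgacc
Runx1 distal: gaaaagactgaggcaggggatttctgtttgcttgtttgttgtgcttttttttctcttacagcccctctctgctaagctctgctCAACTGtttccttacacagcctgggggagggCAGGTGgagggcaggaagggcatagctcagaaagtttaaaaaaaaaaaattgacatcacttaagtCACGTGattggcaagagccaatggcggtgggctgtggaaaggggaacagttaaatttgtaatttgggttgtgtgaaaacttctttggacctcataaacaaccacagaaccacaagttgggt

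Counts per library ran from 21193536 to 23809256. Mitochondrially encoded genes took 21.4 to 23.8% of counts in WT and 12.9 to 14.4% in Mst1-TG, and the factors of the trimmed mean of M-values (TMM) that correct for such differences in composition were 0.891 to 0.938 in WT and 1.08 to 1.13 in Mst1-TG. CPM values are therefore given on the TMM scale. The groups were compared with edgeR's quasi-likelihood test, with p adjusted by Benjamini-Hochberg over all 15314 genes, and a change was called at an adjusted p below 0.05. Fold changes are Mst1-TG over WT on the log2 scale with their standard error (SE). Of all genes 21.2% were called higher and 21.1% lower. With library totals as the only scaling, 7400 genes were called higher and 1593 lower, in place of 3244 and 3238, and the median gene moved from 0.01 to 0.29. No label ties each library to an animal of its own; the p-values therefore describe the scatter among the 8 libraries, part of which may be technical. The ventricular label was checked against chamber markers, with the ventricular light chain Myl2 at 4838 ± 368 (WT) and 2596 ± 216 CPM (Mst1-TG), and the atrial light chain Myl7 at 49.7 ± 6.37 and 24.5 ± 12.7 CPM (SD, n = 4 each).

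Of the 10 factors 8 rose in Mst1-TG, none fell, and Prrx1 and Osr1 did not pass. Among all genes tested 21.2% were called higher and 21.1% lower. Their median log2 fold change was 1.10, beside 0.01 over all genes tested, and 6 of the 8 rises were at least 2-fold. The smallest of these 6 was that of Runx1 (2.01-fold), and 6.10% of all genes tested had a larger log2 fold change. In 7 members all 4 Mst1-TG libraries lay above all 4 WT libraries, a pattern found in 20.2% of all genes tested, and in none did they all lie below (20.1% of genes). DESeq2 and limma-voom called the same numbers, 8 higher and 0 lower, and at an unadjusted edgeR p below 0.05 none was lower. In bulk tissue more cells of a type and more RNA per cell cannot be told apart. A higher value is a higher level in the ventricle's RNA on the TMM scale. It is not a share of all counts, which scaling by library totals would give.

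**Figure D1:**
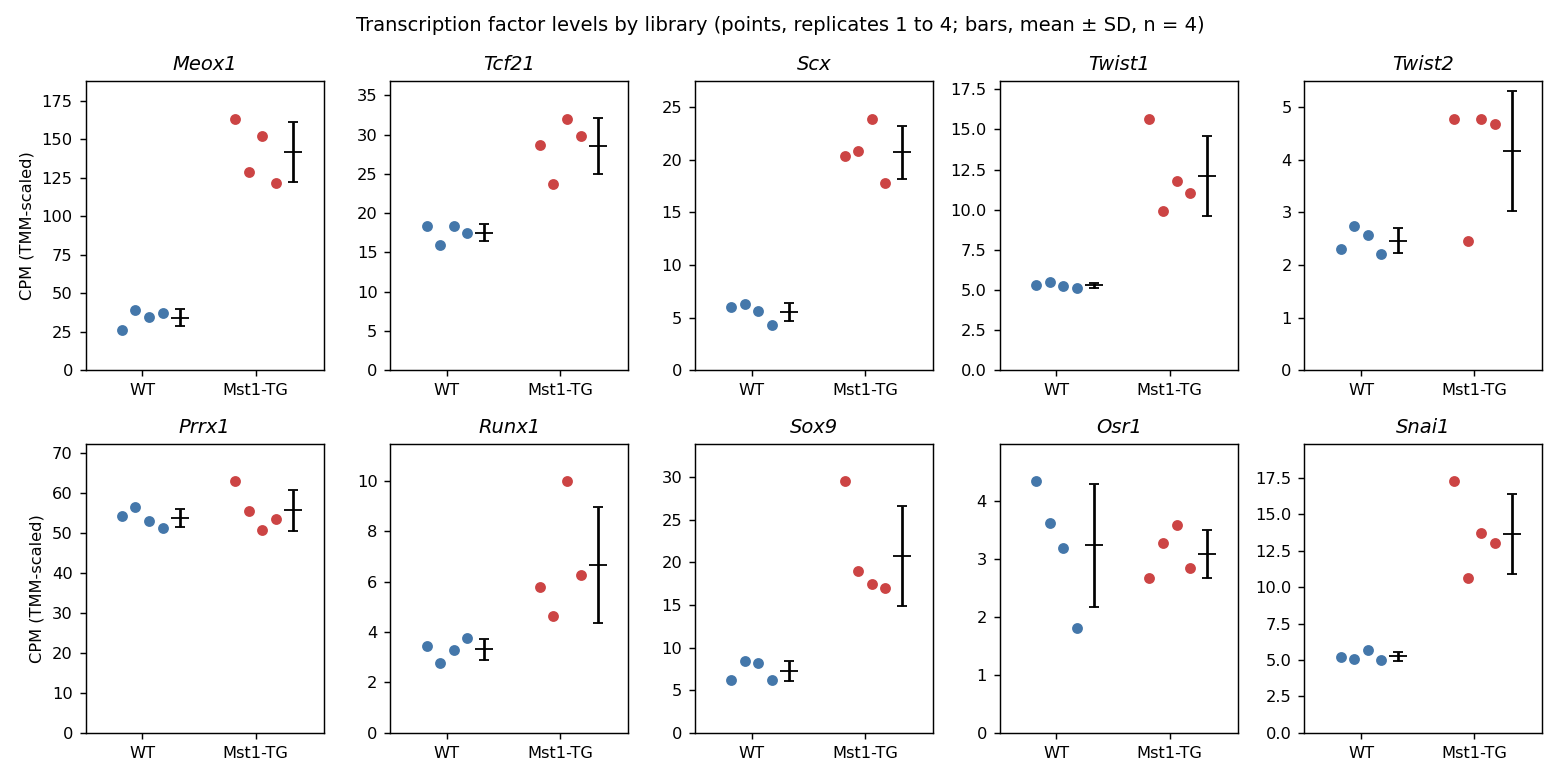
CPM on the TMM scale (y axis, from 0) of the 10 factors in each WT (blue) and Mst1-TG (red) library; points are replicates 1 to 4 from left to right and bars the mean ± SD of n = 4. The Mst1-TG points of Meox1, Tcf21, Scx, Twist1, Runx1, Sox9 and Snai1 lie above all WT points, those of Prrx1 and Osr1 overlap them, and 1 Mst1-TG point of Twist2 lies at the WT level.

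Meox1 and Scx, regulators of the activated state, showed the largest rises of the 10. Meox1 (ENSMUSG00000001493.9, GRCm38 chromosome 11, 101877510 to 101894374, minus strand) was at 25.98, 39.1, 34.4 and 37.3 CPM in WT 1 to 4. In Mst1-TG 1 to 4 it was at 163, 129, 152 and 122 CPM. The lowest Mst1-TG library was far above the highest WT library. The means were 34.2 ± 5.81 and 142 ± 19.5 CPM (SD, n = 4 each), a 4.14-fold rise (log2 2.05 ± 0.13, edgeR adjusted p = 4.86e-07). Only 1.42% of the genes tested had a larger log2 fold change.

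Scx (ENSMUSG00000034161.8, chromosome 15, 76457452 to 76459458, plus strand) was at 5.99, 6.25, 5.65 and 4.28 CPM in WT 1 to 4. Mst1-TG 1 to 4 held 20.4, 20.8, 23.9 and 17.7 CPM, so the groups were well apart, with replicate 4 the lowest library in each. The rise was 3.74-fold (log2 1.90 ± 0.13, edgeR adjusted p = 1.39e-07). Scx lies wholly within Bop1, a ribosome biogenesis gene on the opposite strand. The annotated exons of the pair share 0 bases, and none of the 31-base words of the Scx transcripts occurs in another gene's transcripts. Bop1 rose by 0.42 ± 0.08 on the log2 scale, from 23.4 ± 0.863 to 31.3 ± 2.72 CPM (edgeR adjusted p = 5.73e-04).

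Snai1, Twist1 and Twist2 are drivers of mesenchymal transition, which repress epithelial adhesion genes during gastrulation and neural crest migration. Snai1 (ENSMUSG00000042821.7, chromosome 2, 167538195 to 167542814, plus strand) was tightly grouped in WT, at 5.23, 5.06, 5.70 and 5.03 CPM. In Mst1-TG 1 to 4 it was higher and more spread, at 17.2, 10.6, 13.7 and 13.0 CPM. It rose 2.60-fold (log2 1.38 ± 0.14, edgeR adjusted p = 4.99e-06).

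Twist1 (ENSMUSG00000035799.6, chromosome 12, 33957671 to 33959829, plus strand) was at 5.28, 5.52, 5.23 and 5.13 CPM in WT and at 15.7, 9.92, 11.8 and 11.1 CPM in Mst1-TG. Its coefficient of variation was 3.15% in WT and 20.6% in Mst1-TG, where replicate 1 stood highest and replicate 2 lowest, the same order as for Snai1 at both ends. The rise was 2.29-fold (log2 1.19 ± 0.14, edgeR adjusted p = 1.67e-05).

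Twist2 (ENSMUSG00000007805.4, chromosome 1, 91801461 to 91848028, plus strand) was at 2.31, 2.74, 2.57 and 2.21 CPM in WT. Mst1-TG 1, 3 and 4 lay close together at 4.78, 4.76 and 4.68 CPM, while Mst1-TG 2 was at 2.46 CPM, inside the WT range, with 57 counts. Twist2 still passed (log2 0.76 ± 0.22, edgeR adjusted p = 0.012). Its value is less certain than those of the others for a further reason: 1477 of its 3174 exonic bases overlap Gm29100, an antisense gene, and 46.0% of its 31-base words occur there too. Gm29100 was too low to be tested (0.207 ± 0.150 CPM in WT and 0.152 ± 0.177 in Mst1-TG).

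Sox9 and Runx1 are best known outside the fibroblast, Sox9 as the master factor of cartilage and a factor of heart valves, Runx1 as a factor of blood formation. Sox9 (ENSMUSG00000000567.5, chromosome 11, 112782224 to 112787760, plus strand) was at 6.22, 8.41, 8.17 and 6.24 CPM in WT. In Mst1-TG it was at 29.5 CPM in replicate 1 and at 19.0, 17.5 and 17.0 CPM in the others, and no library overlapped the other group. The rise was 2.86-fold (log2 1.51 ± 0.19, edgeR adjusted p = 6.39e-05).

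Runx1 (ENSMUSG00000022952.17, chromosome 16, 92601466 to 92826149, minus strand) was at 3.44, 2.79, 3.28 and 3.77 CPM in WT and at 5.79, 4.66, 9.98 and 6.26 CPM in Mst1-TG. Mst1-TG 3 stood highest, and the groups did not overlap. Runx1 rose 2.01-fold (log2 1.01 ± 0.22, edgeR adjusted p = 0.00242). Gene-level counts do not say which of its promoters, printed above, the reads came from.

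Tcf21, the factor of resting fibroblasts, rose too, though less than Meox1 and Scx. Tcf21 (ENSMUSG00000045680.8, chromosome 10, 22817281 to 22820174, minus strand) was at 18.3, 15.95, 18.4 and 17.4 CPM in WT and at 28.7, 23.7, 32.0 and 29.8 CPM in Mst1-TG, without overlap. The rise was 1.63-fold (log2 0.70 ± 0.10, edgeR adjusted p = 5.63e-05).

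Prrx1 and Osr1, homeobox and zinc-finger factors of embryonic limb, body-wall and kidney mesenchyme, did not pass. Prrx1 (ENSMUSG00000026586.16, chromosome 1, 163245119 to 163313710, minus strand) had the most even values of the 10 in Mst1-TG, at 62.8, 55.4, 50.7 and 53.5 CPM, against 54.3, 56.5, 52.9 and 51.2 CPM in WT. Mst1-TG 1 lay above and Mst1-TG 3 below every WT library. The log2 difference was 0.05 with a 95% interval from -0.09 to 0.19 (edgeR adjusted p = 0.62). With library totals as the only scaling it passed as higher (0.34, edgeR adjusted p = 0.00129), where the 15 alternatives spanned adjusted p from 0.00129 to 0.891.

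Osr1 (ENSMUSG00000048387.8, chromosome 12, 9570116 to 9581500, plus strand) was at 4.34, 3.61, 3.18 and 1.81 CPM in WT. Mst1-TG 1 to 4 lay inside that range at 2.67, 3.28, 3.58 and 2.84 CPM. The WT spread was wide, with 36 counts in WT 4, and the 95% interval of the log2 difference of -0.07 ran from -0.525 to 0.39 (edgeR adjusted p = 0.846). The standard error was 0.233, and 0.185 without WT 4. The sign of the difference was positive with library totals as the only scaling (0.22) and, on the TMM scale, without WT 1 (0.11).

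Other annotated genes overlap the spans of Meox1 (Gm11551), Tcf21 (Gm10824), Prrx1 (Gm20471, Gm26523 and Gm37644), Runx1 (Gm26626), Osr1 (1700022H16Rik) and, in an intron, Twist2 (Gm29101). Of these, Gm26626 shares 106 exonic bases with Runx1, and the others share 0 with their member. Only Gm10824 of these was tested; its WT mean was 0.653 ± 0.342 CPM and its Mst1-TG mean 1.18 ± 0.333 CPM, short of the threshold.

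Some libraries stood at the ends of their group more often than others. Mst1-TG 1 was the highest Mst1-TG library for 6 of the 10 factors and Mst1-TG 2 the lowest for 5. In WT, replicate 2 was highest for 6 and replicate 4 lowest for 6.

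Levels can be set side by side once divided by exon length. On the scale of CPM per kilobase of annotated exon, Meox1 was the highest in WT (15.4 ± 2.61, SD, n = 4), followed by Tcf21 (7.46 ± 0.485), Prrx1 (4.85 ± 0.201), Twist1 (3.25 ± 0.102), Snai1 (3.24 ± 0.191), Scx (2.76 ± 0.437), Sox9 (1.76 ± 0.289), Osr1 (1.57 ± 0.514), Twist2 (0.774 ± 0.0750) and Runx1 (0.276 ± 0.0342). Neighbours whose libraries overlapped were Twist1 and Snai1, Snai1 and Scx, and Sox9 and Osr1. In Mst1-TG Meox1 stood at 63.5 ± 8.74, and Scx moved from the sixth place to the third at 10.3 ± 1.26, overlapping Tcf21 above it (12.1) and Snai1 below it (8.42 ± 1.69). Prrx1 went from the third to the sixth place without a called change of its own, at 5.02 ± 0.468. Exons of all isoforms were pooled for the lengths, which reach 11066 bases for Prrx1 and 12025 for Runx1, so the level per kilobase is understated for a gene read mainly from a short isoform.

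Markers of the fibroblast itself rose along with these factors. Of 12 markers 11 rose (Olfml3, a secreted glycoprotein, from 20.2 ± 1.47 to 53.5 ± 4.13 CPM, Serpinf1, a secreted serpin, by 1.63 ± 0.10 on the log2 scale, Pdgfra, the PDGF receptor of the lineage, by 1.13 ± 0.08, and the proteoglycan decorin, Dcn, by 1.21 ± 0.09), and Scara5, a scavenger receptor, fell by 1.67 ± 0.11 on the log2 scale. The summed level of the list ran from 1513 to 1747 CPM in WT and from 2895 to 3255 in Mst1-TG, 1.89 times as high (two-sided exact permutation p = 0.0286, the lower limit for 4 against 4 libraries). To see how each factor moved against that level, the counts were refitted with the summed fibroblast marker counts as library size. On that scale the median of all genes was -0.91, and 3.26% of genes were called higher and 82.1% lower.

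Against the fibroblast markers 4 factors were higher, 2 were lower and 4 did not pass. Per 1000 marker counts, Meox1 was at 16.1, 25.7, 22.8 and 21.4 in WT 1 to 4 and at 50.2, 44.5, 50.6 and 41.5 in Mst1-TG 1 to 4 (log2 1.12 ± 0.12, edgeR adjusted p = 1.71e-07). Scx was at 3.71, 4.11, 3.74 and 2.45 in WT and at 6.27, 7.19, 7.94 and 6.04 in Mst1-TG (0.97 ± 0.15, edgeR adjusted p = 6.2e-06). Both were clear of overlap, so these activation factors rose beyond the summed markers. Of the 12 markers themselves 3 were higher and 5 lower on this scale. Serpinf1 (0.70 ± 0.10) was the highest and Scara5 (-2.58 ± 0.13) the lowest.

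Sox9 was also higher on this scale without overlap, at 3.57 to 5.54 in WT and 5.79 to 9.05 in Mst1-TG (0.57 ± 0.18, edgeR adjusted p = 0.00674). Snai1 was higher by 0.44 ± 0.14 (edgeR adjusted p = 0.00757), with overlap, since Mst1-TG 2 (3.66) lay below WT 3 (3.77). The fold changes of Sox9 and Snai1 on this scale were below that of the marker Serpinf1.

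Prrx1 was lower against the markers, at 29.3 to 37.2 per 1000 in WT and 16.8 to 19.3 in Mst1-TG (-0.88 ± 0.09, edgeR adjusted p = 4.73e-08). Osr1 was lower as well (-0.99 ± 0.25, edgeR adjusted p = 0.00111), although WT 4 (1.04) lay within the Mst1-TG libraries (0.821 to 1.19). Both values lay close to the median of all genes on this scale.

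Tcf21 (-0.22 ± 0.11, edgeR adjusted p = 0.0663), Twist2 (-0.17 ± 0.22, adjusted p = 0.483), Runx1 (0.09 ± 0.21, adjusted p = 0.689) and Twist1 (0.26 ± 0.14, adjusted p = 0.0922) did not pass. Tcf21 was called lower without WT 4 (-0.26, edgeR adjusted p = 0.037) or without Mst1-TG 3 (-0.28, adjusted p = 0.0325), and its alternatives spanned adjusted p from 0.0325 to 0.91. Twist1 was called higher when Dcn, which supplied 43.4% of the marker counts, was left out of the sum (0.47, edgeR adjusted p = 0.00602), or when the geometric mean of the markers was used (0.51, adjusted p = 0.00421; range over its alternatives 0.00421 to 0.308).

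**Figure D2:**
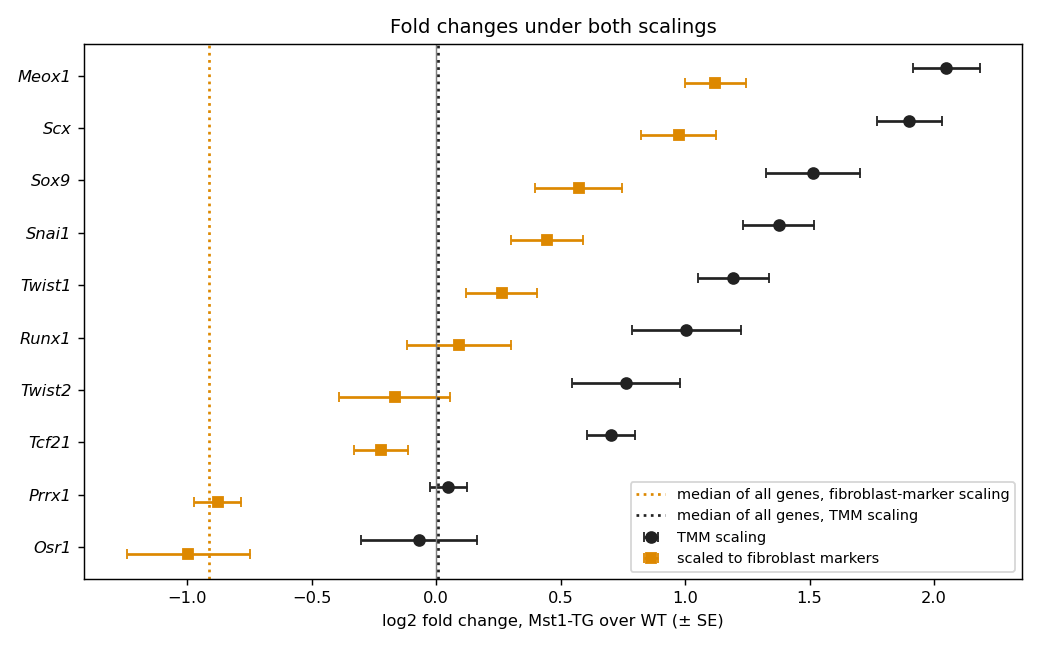
Log2 fold change of Mst1-TG over WT ± SE (x axis) for each factor, with TMM scaling (black circles) and with library sizes set to the summed fibroblast marker counts (orange squares); dotted lines are the medians of all genes tested. Meox1, Scx, Sox9 and Snai1 lie to the right of 0 on both scales, and Prrx1 and Osr1 lie near the all-gene median on both.

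Markers of other cell types that express some of the factors were measured beside them, and in none of these lists was a marker at 0 in all libraries. Leukocyte markers, which bear on Runx1, were at 201 to 285 CPM in WT and 225 to 292 in Mst1-TG in sum. Of the 7 tested, edgeR, DESeq2 and limma-voom called 0, and 1 had an unadjusted edgeR p below 0.05 (the B cell gene Cd79a, lower). Cd3e, of T cells, was too low to be tested. Markers of tendon, cartilage and valve, which bear on Scx and Sox9, summed to 34.2 to 61.1 CPM in WT and 58.5 to 115 in Mst1-TG (exact permutation two-sided p = 0.0571). Of 8 such markers 2 rose, Tnmd (tenomodulin, a tendon membrane protein) from 0.256 ± 0.176 to 2.44 ± 0.875 CPM and Fmod (fibromodulin) from 22.4 ± 7.01 to 63.6 ± 17.4 CPM. The cartilage genes Acan and Hapln1 did not pass, at 0.973 ± 0.233 and 1.22 ± 0.578 CPM in WT and 1.20 ± 0.197 and 1.02 ± 0.426 CPM in Mst1-TG.

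Of the Schwann cell markers, which also bear on Sox9, Cdh19 (a cadherin of Schwann precursors) rose from 3.83 ± 0.926 to 6.54 ± 1.08 CPM. S100b, at 0.952 ± 0.272 and 1.12 ± 0.341 CPM, did not pass. Epicardial markers, which bear on Osr1 and Tcf21, summed to 19.9 to 30.4 and 25.1 to 44.7 CPM, with 1 of 6 higher (Krt19, an epithelial keratin). Endothelial markers ran from 2004 to 2501 and from 1558 to 2330 CPM, with 3 of 8 lower. Mural markers ran from 1183 to 1474 and from 1087 to 1367 CPM, with 1 of 7 higher and 2 lower. Cardiomyocyte markers ran from 39362 to 48067 in WT and from 27705 to 37406 in Mst1-TG, with 5 of 8 lower. Atrial markers ran from 89.5 to 127 and from 31.2 to 90.4 CPM, with all 3 (Sln, Myl7 and Myl4) lower. The part of the shifts in these lists in the factors' values was not tested.

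Relatives of the same factor families were followed to see how far the pattern extends. Of 13 relatives 12 were tested, 5 rose, 2 fell and 5 did not pass, with a median of 0.29. The close relative of Prrx1, Prrx2, rose from 0.377, 0.826, 0.523 and 0.201 CPM in WT to 6.28, 3.49, 5.66 and 3.76 CPM in Mst1-TG (log2 3.31 ± 0.34, edgeR adjusted p = 4.62e-06), while Prrx1 itself did not pass. Runx2, the bone-forming relative of Runx1, rose from 1.04 ± 0.410 to 4.17 ± 0.484 CPM (1.99 ± 0.25, edgeR adjusted p = 2.59e-05). Zeb1 and Zeb2, repressors of epithelial genes, rose by 0.44 ± 0.07 and 0.47 ± 0.08. Against the fibroblast markers 2 relatives were higher (Prrx2, 2.37 ± 0.33, and Runx2, 1.09 ± 0.25) and 8 lower, among them Zeb1 (-0.48 ± 0.09) and Zeb2 (-0.45 ± 0.09), on a scale where 82.1% of all genes were lower.

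Other relatives did not follow. Snai3 fell from 2.16 ± 0.403 to 0.901 ± 0.435 CPM, and Snai2 was at 7.09 ± 0.608 in WT and 7.61 ± 0.667 CPM in Mst1-TG. Tcf15, a bHLH factor of heart endothelium, fell from 61.9 ± 14.8 to 30.6 ± 4.85 CPM, in libraries where the endothelial markers were at the levels given above. Meox2, the relative of Meox1, was at 20.8 ± 4.10 and 23.6 ± 0.925 CPM and did not pass.

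Partners and inhibitors of the factors were measured too. Twist, Scx and Tcf21 proteins bind DNA as heterodimers with E proteins, Runx proteins with Cbfb, and Sox9 acts with Sox5 and Sox6. Of 8 partner genes 4 rose, none fell and the others did not pass (median 0.22): the E protein Tcf12 rose by 0.37 ± 0.07, Sox5 by 0.82 ± 0.18, Cbfb by 0.30 ± 0.07 and Smad4 by 0.21 ± 0.07. With library totals only, 7 of the 8 were called higher, as were 7400 of all 15314 genes tested. Against the fibroblast markers 0 were higher and 7 lower, on a scale where 82.1% of all genes were lower. Of the 4 Id genes, whose products trap E proteins, Id4 rose from 1.93 ± 0.111 to 9.45 ± 2.00 CPM (2.29 ± 0.17, edgeR adjusted p = 2.43e-07) and Id2 by 0.89 ± 0.14. Id1 and Id3, the more abundant pair, were at 93.5 ± 15.6 and 117 ± 11.7 CPM in WT and at 70.1 ± 15.8 and 122 ± 13.7 CPM in Mst1-TG, short of the threshold. The main test called 0 Id genes lower, but 1 was called lower by DESeq2, 1 without Mst1-TG 3, and 1 had an unadjusted edgeR p below 0.05. Against the fibroblast markers 1 of the 4 was higher (Id4, 1.36 ± 0.17) and 2 were lower.

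Upstream, of 17 genes that carry signals to these factors 10 rose, 1 fell and 6 did not pass (median 0.25). TGF-beta is the classical inducer of fibroblast activation. Tgfb2 rose by 1.33 ± 0.07, Tgfb3 by 1.34 ± 0.08, Tgfb1 by 0.71 ± 0.08 and the receptor Tgfbr1 by 0.91 ± 0.07. Serum response factor, Srf, was the one that fell (-0.32 ± 0.08, edgeR adjusted p = 0.00823). Scaled by library totals alone, 0 were lower. Without WT 2, WT 4 or Mst1-TG 1 there were 2 lower genes. Against the fibroblast markers 2 of the 17 were higher (Tgfb2, 0.41 ± 0.10, and Tgfb3, 0.42 ± 0.09) and 14 lower. Of all genes 3.26% were higher and 82.1% lower on that scale. Tgfb1 was among the lower ones (-0.22 ± 0.10, edgeR adjusted p = 0.0462), while Tgfbr1 was at -0.01 ± 0.09.

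Downstream, 10 of 16 matrix genes described as targets of the members rose, none fell and 6 did not pass (median 1.25). Postn, periostin, a matricellular protein of activated fibroblasts, rose from 107 ± 15.3 to 613 ± 40.0 CPM (2.52 ± 0.10, edgeR adjusted p = 3.27e-09). Scaled to the fibroblast markers, 8 of the 16 were higher and 3 lower, beside 3.26% and 82.1% of all genes. Col1a2, the collagen chain whose promoter Scx binds, rose by 1.67 ± 0.13, the protease Mmp2 by 1.46 ± 0.08 and fibronectin, Fn1, by 1.35 ± 0.11. The classical cartilage targets of Sox9 did not rise together. Col11a1 rose from 1.64 ± 0.941 to 10.3 ± 2.49 CPM, but Col2a1, at 0.936 ± 0.767 and 0.404 ± 0.303 CPM, Acan, Hapln1, Comp and Col11a2 did not pass. Tnmd, Col2a1, Acan, Hapln1 and Comp stand in the list of tendon, cartilage and valve markers as well.

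Among 18 markers of the activated fibroblast 15 rose, 1 fell and 2 did not pass (median 2.06), and 5 of them, Postn, Ccn2, Tnc, Fn1 and Comp, are also in the matrix list. Cilp, a matrix protein of fibrotic hearts, rose from 19.2 ± 4.21 to 335 ± 57.5 CPM (4.12 ± 0.18) and the collagen Col8a1 from 34.1 ± 2.82 to 269 ± 27.6 CPM (2.98 ± 0.09). Ccn4, a matricellular protein of the Wnt pathway, rose from 4.09 ± 0.894 to 15.0 ± 1.58 CPM (1.87 ± 0.15). Of the 18, 12 were higher and 3 lower against the fibroblast markers, beside 3.26% and 82.1% of all genes. Acta2, the smooth muscle actin that defines myofibroblasts, fell from 486 ± 117 to 183 ± 56.9 CPM (-1.41 ± 0.25, edgeR adjusted p = 0.00214). Tagln, also among the 18, was at 54.8 ± 3.14 and 63.1 ± 7.90 CPM and did not pass. Myh11, a mural marker that vascular smooth muscle expresses with Acta2, fell from 77.0 ± 3.11 to 63.3 ± 6.48 CPM. The 7 mural markers did not move together: 2 fell (Myh11 and Kcnj8), 4 did not pass and Cspg4 rose from 42.2 ± 1.02 to 109 ± 4.01 CPM. The part of the mural cells in the Acta2 value was not tested.

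Genes that Snail and Twist factors repress in epithelia were mostly too low to test. Of 9 such genes 3 were tested, and 2 rose, the keratins Krt18 (0.780 ± 0.218 to 9.41 ± 1.94 CPM, 3.59 ± 0.22) and Krt8 (0.812 ± 0.235 to 6.67 ± 2.36 CPM, 3.03 ± 0.30). Against the fibroblast markers the keratins were higher and Ocln, occludin, was lower. On the TMM scale Ocln did not pass, and Cdh1, Cldn3, Cldn4, Epcam, Esrp1 and Esrp2 were below the filter.

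The rises of the 8 factors were called in each of 15 other fits: 8 with 1 library left out, and 7 with other scalings, filters or tools or with a replicate block. The smallest value for Meox1 was 1.94 and for Scx 1.80, and the weakest call was for Twist2, with a largest adjusted p of 0.0381. Runx1 ranged from 0.75 to 1.29.

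**Figure D3:**
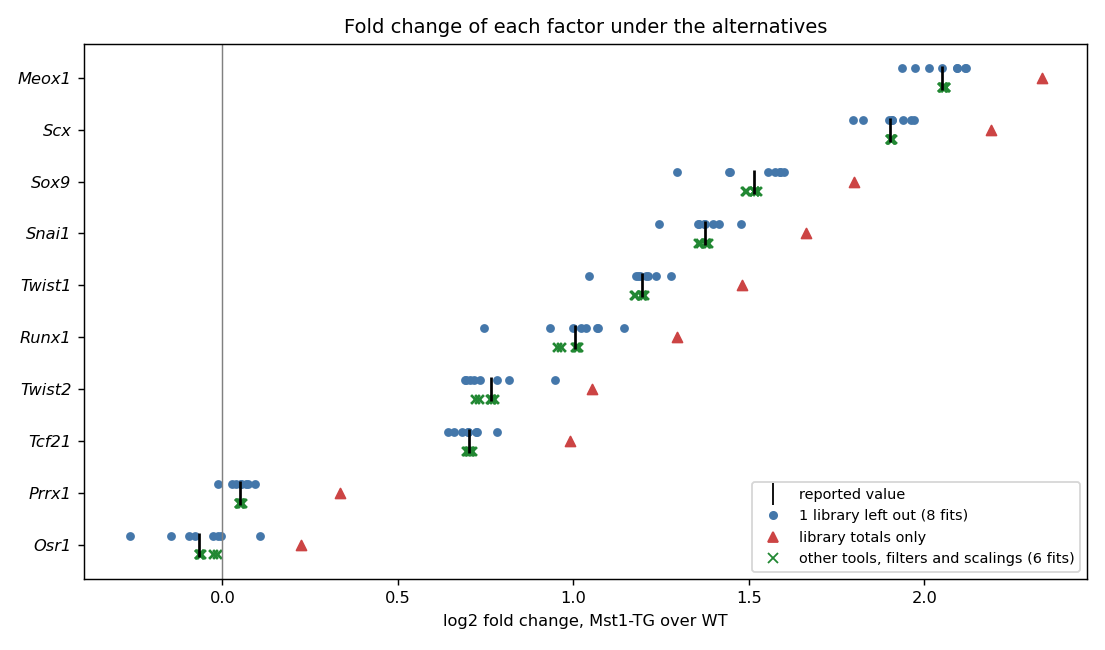
Log2 fold change of Mst1-TG over WT (x axis) of each factor as reported (black bar), with 1 library left out (blue), with library totals only (red triangles) and with other tools, filters and scalings (green). Library totals move each factor to the right, and only for Osr1 and Prrx1 do values lie on both sides of 0.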

How the data were processed

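Total RNA (200 ng) was depleted of ribosomal RNA and made into directional libraries, per the labels' protocols. The submitters' processing notes name bcl2fastq 2.19.1.403 and kallisto 0.46.0. For genome build, annotation, strand setting and read filters: not given in the sources used here. The table the authors deposited holds estimated counts per gene, whole numbers not scaled for library size (rounding changed nothing). All 10 identifiers matched GENCODE M21 (GRCm38) with their version, which supplied positions and exon lengths; promoters are RefSeq's.

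Testing used edgeR 4.0.16 in R 4.3.3 after filterByExpr (minimum count 10, total 15), with TMM scaling and robust quasi-likelihood fits, tested on simulated data first. The second fit used the summed counts of 12 fibroblast markers as library size. Alternatives were library totals, RLE factors, DESeq2 1.42.0, limma-voom 3.58.1, no filter, scaling without the 20 most abundant and mitochondrial genes, a replicate block, and leaving out each library. An interval is the log2 fold change ± the normal quantile times the SE.

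Named were all 10 members, Stk4, genes overlapping a member, and up to 4 genes with the smallest p of each pathway list and of the fibroblast list; of the other cell type lists only some of these are named, and further names were chosen after their values were seen. Members and lists were chosen with earlier results of these data known. Replicate numbers are not stated to pair animals.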

Additional observations from a re-analysis of the deposited data

Results flagged for a closer look

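In 58 groups of 4 libraries, 5 had a library far from the other 3 by Dixon's criterion (critical value 0.829), which chance gives in about 5% of groups. Twist2 was low in Mst1-TG 2 (2.46 CPM, the others 4.68 to 4.78), also per 1000 fibroblast marker counts (0.849, the others 1.47 to 1.59). Sox9 was high in Mst1-TG 1 (29.5 CPM, the others 17.0 to 19.0). Runx1 per 1000 fibroblast marker counts was low in WT 2 (1.84, the others 2.13 to 2.17). The summed markers of tendon, cartilage and valve were high in WT 2 (61.1 CPM, the others 34.2 to 38.7).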

How the results depend on the processing

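The count of 8 higher and 0 lower factors held in all fits that left out a library (8 to 8 higher, 0 to 0 lower), with RLE factors, DESeq2, limma-voom, no filter and scaling without abundant genes, and was 9 higher with library totals only, which added Prrx1. Scaling to the summed fibroblast marker counts gave 4 higher and 2 lower, and turned Tcf21 (-0.22), Twist2 (-0.17) and Prrx1 (-0.88) to negative values, because that scaling sets each gene against markers that rose. On that scale the count without 1 library was 4 to 4 higher and 2 to 3 lower, and 5 higher without Dcn or with the geometric mean. Genes of the pathway lists, 44 higher and 4 lower of 73 tested, ranged from 41 to 45 higher and 4 to 6 lower without 1 library, and were 56 and 3 with library totals only. Same-numbered libraries of the 2 groups did not deviate together (correlations -0.16, 0.07, 0.02 and -0.02). With the replicate block the factors were 8 higher and 0 lower, on the fibroblast scale 4 and 2, and the pathway genes 44 and 5, with 1 Id gene lower in place of 0. With library totals only, the summed marker levels moved by more than the spread between libraries for fibroblast (log2 1.20), cardiomyocyte (-0.21), mural (0.16) and leukocyte (0.28) lists. Osr1, Twist2 and Runx1 had under 100 counts in every WT library; the share of depth in their spread was not tested.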

Other observations

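Count ratios within a library do not depend on scaling. The 7 ratios below were chosen after their values were seen and are descriptions without a test. The ratio of Meox1 to Tcf21 counts ran from 1.42 to 2.45 in WT and from 4.09 to 5.70 in Mst1-TG, and that of Meox1 to Prrx1 from 0.479 to 0.729 and from 2.28 to 3.00. Prrx2 to Prrx1 went from 0.00393 to 0.0146 in WT up to 0.0630 to 0.112 in Mst1-TG, so the homeobox pair shifted in its proportions while Prrx1 remained by far the more counted gene. Runx2 to Runx1 ran from 0.204 to 0.413 and from 0.473 to 0.935, Snai1 to Snai2 from 0.680 to 0.793 and from 1.52 to 2.13, and Twist1 to Twist2 from 2.02 to 2.32 and from 2.37 to 4.04. Sox9 to Tcf21 ran from 0.339 to 0.528 in WT and from 0.547 to 1.03 in Mst1-TG. None of the 7 ratios overlapped between the groups.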
